A study of Homo sapiens with 18 samples.

Results

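The B-cell receptor carries a signal from bound antigen to the transcription factor NF-kB, and 9 genes of that route are described here: CD79A, CD79B, LYN, SYK, BTK, BLNK, PLCG2, BCL10 and MALT1. They were taken by symbol from the count and TPM tables of both cell lines, and all 9 of the 9 symbols were found among the 23686 in those tables. All 9 also passed the filter on low counts in each line. The series measured RNA by bulk sequencing of ribosome-depleted total RNA in OCI-Ly1 and TMD8, 2 established cell lines from human diffuse large B-cell lymphoma. Each line was given the vehicle (0.01% DMSO) or JIB-04, a small-molecule inhibitor of Jumonji-domain histone demethylases, at a dose of 150 nM or 500 nM, with 3 libraries in each of the 6 groups. OCI-Ly1 grew in IMDM and TMD8 in RPMI 1640, each with 10% serum, so line and medium cannot be told apart. The labels call the libraries technical triplicates and give no treatment time, so the p-values measure only the spread between libraries, which may be technical.

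In a resting B cell, surface immunoglobulin is held in a complex with the CD79A-CD79B heterodimer, whose cytoplasmic tails carry tyrosine motifs. When antigen gathers the receptors, the Src-family kinase LYN phosphorylates those motifs, SYK docks on them, and SYK phosphorylates the scaffold BLNK, on which BTK activates the phospholipase PLCG2. The diacylglycerol and calcium that PLCG2 releases activate protein kinase C beta (PRKCB), and downstream of it BCL10 and MALT1 assemble into filaments that switch on the IKK complex and NF-kB. Activated-type lymphoma lines such as TMD8 are known for depending on this route, whereas germinal-centre-type lines such as OCI-Ly1 lean on it less through NF-kB.

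The labelled lines were compared with their markers. All 8 of the 8 B-cell markers, CD79A and CD79B among them, had a mean of at least 1 TPM in every group. The 8 activated-type markers summed to 633 to 774 TPM in TMD8 with DMSO and to 154 to 158 TPM in OCI-Ly1. At 500 nM the same 8 summed to 407 to 460 TPM in TMD8 and to 301 to 319 TPM in OCI-Ly1. There IRF4 went from a mean of 55.1 to 116 TPM and PIM2 from 53.9 to 130 TPM. All these sums are on the TPM scale, which itself moved between the lines and with dose, as given below. Of the 9 germinal-centre-type markers, MME (84.6 TPM), BCL6 (79.4) and MYBL1 (15.1) were high in OCI-Ly1 with DMSO and at 0.0151, 9.48 and 0.885 TPM in TMD8. LMO2 and SERPINA9, from the same list, went the other way, at 0.0113 and 0.1 TPM in OCI-Ly1 and 25.1 and 9.26 TPM in TMD8. The 5 plasma-cell markers summed to 628 to 668 TPM in OCI-Ly1 with DMSO, with IGJ at a mean of 566, and to 79 to 102 TPM in TMD8. From that list, TNFRSF17 went from 70.3 to 209 TPM at 500 nM in OCI-Ly1. PRDM1 was at 0.552 TPM in OCI-Ly1 with DMSO and 53.4 TPM in TMD8. Myeloid markers summed to at most 1.62 TPM in any library. The 8 T-cell markers summed to 42.5 to 46.1 TPM in OCI-Ly1 with DMSO and 27.8 to 30.7 TPM at 500 nM, carried by CD3D, CD3G and CD247, with CD3E at means of 0.376 to 0.436 TPM. In TMD8 the same 8 summed to 2.69 to 3.51 TPM over the 3 groups, with CD3E at 0. Their part in the results was not tested. In RNA from whole cultures, fewer cells that express a gene and less of its RNA per cell cannot be told apart.

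The OCI-Ly1 libraries held 17579732 to 32651115 estimated counts each, and the TMD8 libraries 9550092 to 20509500. Among the 9 genes the lowest estimated count in any library was 578, for BCL10, and the highest was 15046, for PLCG2. The counts of SYK and BCL10 were fractional in all 18 libraries and those of LYN in 4 of 18 (more than 0.01 from a whole number), as happens where kallisto shares reads between a gene and another target, and these 3 levels are uncertain to that extent. Levels within a line are given as CPM, the counts set to a common library size by TMM scaling of that line's 9 libraries. Where genes are compared they are given as TPM, which also divides by transcript length. A gene is said to have risen or fallen when edgeR's quasi-likelihood test gave a Benjamini-Hochberg adjusted p under 0.05 over all genes tested in that comparison.

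The TPM scale and the count scale differ in this series. A single short transcript, MIR3687, took 15.2% to 24.3% of all TPM in the TMD8 libraries with only 0.324% to 0.561% of the counts. In OCI-Ly1 the top row was RPPH1, the RNA of ribonuclease P, with 6.33% to 10.6% of TPM. On log2(TPM + 1) the median over all genes moved by -0.22 between DMSO and 500 nM in TMD8 and by 0.10 in OCI-Ly1, against 0.04 and -0.0033 on the count scale. Between the lines with DMSO it lay at 0.61 on log2(TPM + 1) and at -0.025 on the count scale. Directions below are from the counts, and each one that turned on log2(TPM + 1) is named where it is given.

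The 9 genes spanned a wide range of expression, and the order differed between the lines. In OCI-Ly1 with DMSO the mean TPM was 441 for CD79B, 221 for CD79A, 175 for PLCG2, 107 for SYK, 83.9 for LYN, 71.7 for BTK, 44.3 for BLNK, 14.2 for MALT1 and 13.5 for BCL10. The ranges of neighbours in that order overlapped for MALT1 and BCL10 and for no other neighbouring pair. In TMD8 with DMSO the order was CD79A at 240 TPM, LYN at 131, CD79B at 114, SYK at 92.9, PLCG2 at 84.5, BLNK at 62.6, BTK at 45.5, BCL10 at 15.5 and MALT1 at 13.1. There the ranges overlapped for LYN and CD79B, for SYK and PLCG2 and for BCL10 and MALT1. The receptor chains were thus among the most abundant of the 9 in both lines, and the BCL10-MALT1 pair was the least abundant. CD79B in OCI-Ly1 exceeded 98.3% of the genes with any TPM, whereas BCL10 there exceeded 62.4%. At 500 nM BLNK (50.8 TPM) and BTK (49.9 TPM) had overlapping ranges in OCI-Ly1, and in TMD8 SYK (47.5 TPM) stood below PLCG2 (73.1 TPM) and BLNK (65.6 TPM).

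With DMSO, 8 of the 9 genes differed between the lines in the fit of all 18 libraries, against 76.7% of the 16604 genes tested there (37.8% higher in OCI-Ly1 and 39% lower). CD79B was higher in OCI-Ly1, by a log2 difference of 0.92 (SE 0.061, edgeR adjusted p = 1e-13), and 7 genes were lower there. Those 7 were LYN at -1.61, BLNK at -1.46, BCL10 at -1.16, CD79A at -1.08, MALT1 at -0.85, SYK at -0.76 and BTK at -0.31, with adjusted p-values from edgeR of at most 2.6e-05. PLCG2 differed by 0.083 (95% interval -0.022 to 0.19, adjusted p = 0.14 by edgeR). It was called higher in OCI-Ly1 without TMD8 DMSO library 1 (0.13, edgeR adjusted p = 0.018), with library-size scaling (0.23, edgeR adjusted p = 1.4e-05), on log2(TPM + 1) (1.05, limma adjusted p = 1.9e-09) and after centring (0.32, limma adjusted p = 9.4e-06). On log2(TPM + 1) the split was 4 higher and 2 lower in place of 1 and 7: SYK turned to 0.21, BTK to 0.65 and MALT1 to 0.099. Over all 16604 genes that scale gave 11296 higher and 2906 lower. The receptor's 2 chains differed in opposite directions between the lines on the count scale, and in TPM CD79B was the higher chain in OCI-Ly1 and CD79A in TMD8.

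**Figure D1:**
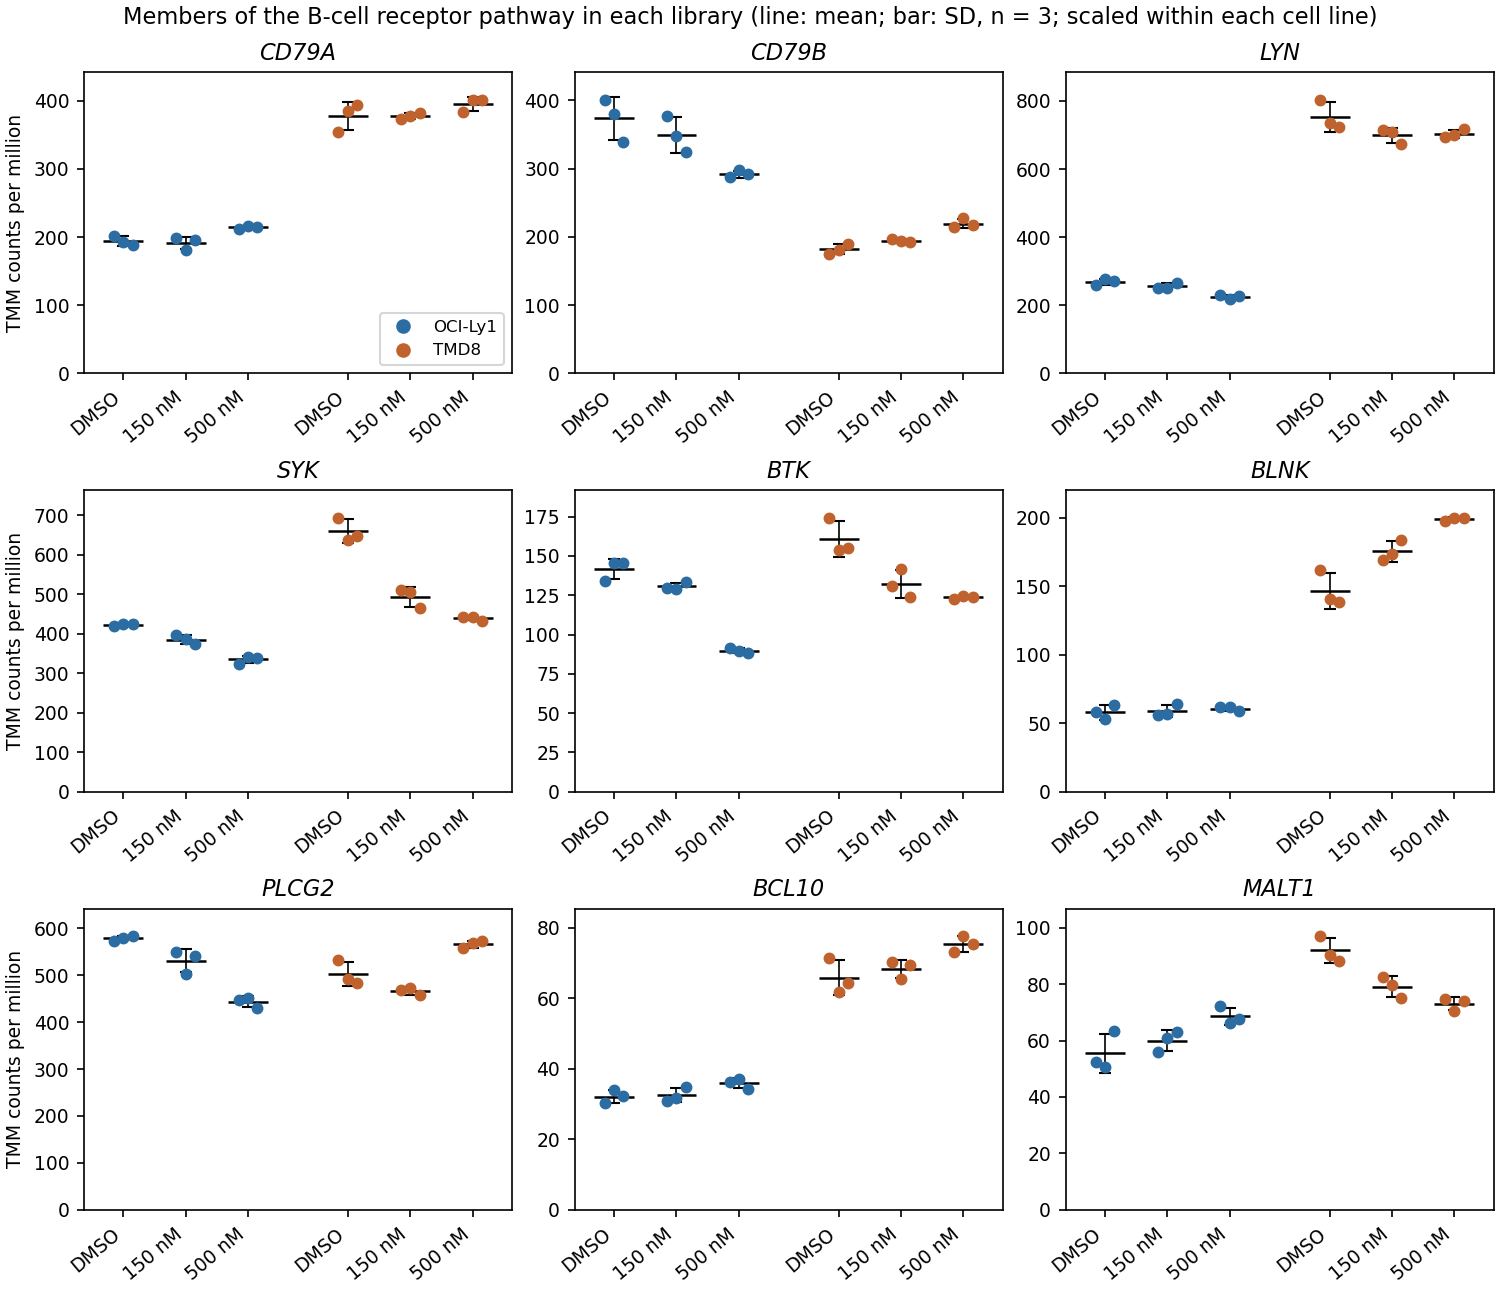
TMM CPM of each of the 9 genes in every library (points) by dose, with the group mean (line) and SD (bar, n = 3), OCI-Ly1 in blue and TMD8 in orange; each line was scaled on its own, so heights are compared within a line. SYK and BTK sat below their DMSO libraries at 500 nM in both lines, while CD79B, PLCG2 and MALT1 moved one way in OCI-Ly1 and the other in TMD8; on log2(TPM + 1) the TMD8 values of CD79B (-0.099) and PLCG2 (-0.20) were below 0 and not called.

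Across the design, the kinases SYK and BTK fell in both lines at 500 nM JIB-04. On counts, 3 of the 9 genes were called in opposite directions, beside 8.51% of 14483 genes tested in both lines. Another 4 were called in 1 line only, as were 6223 of those 14483. In OCI-Ly1, 0 of the 9 genes were called at 150 nM, where 0.889% of 15638 genes were called (0.748% higher and 0.141% lower). An unadjusted p under 0.05 in edgeR was reached by 3 of them, SYK, BTK and PLCG2, and DESeq2 also called 0. The share of all genes under that unadjusted threshold was not counted, so the 3 have no background to be read against. At 500 nM in OCI-Ly1, 7 of 9 were called, 2 higher and 5 lower, beside 53.6% of all genes (27.7% higher and 25.9% lower). Their median log2 change was -0.26 against -0.0033 over all genes. In TMD8, 4 of 9 were called at 150 nM, 1 higher and 3 lower, beside 44.2% of 15363 genes (19.2% higher and 25% lower). At 500 nM in TMD8 the count was 7 of 9, 4 higher and 3 lower, beside 60.7% of all genes (29.9% higher and 30.7% lower), and the median log2 change of the 9 was 0.066 against 0.041 over all genes. Within a line both doses were set against the same DMSO libraries. In TMD8, DMSO library 1 was the highest of its group for 7 of the 9 genes and the lowest for CD79A and CD79B, and the 7 calls at 500 nM were also made without it.

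Other scales moved these splits between higher and lower. At 500 nM in OCI-Ly1 the split was 3 higher and 4 lower on log2(TPM + 1), and 0 and 5 after centring each library on its median. Over all 15638 genes these scales gave 5739 higher and 2240 lower, and 2902 and 6079. At 500 nM in TMD8 the split was 0 higher and 5 lower on log2(TPM + 1), and 2 and 4 after centring. Over all 15363 genes it was 1751 higher and 7581 lower, and 5014 and 5357 after centring. At 150 nM in TMD8 log2(TPM + 1) gave 0 higher and 3 lower, centring gave 1 and 5, and scaling by library size alone gave 3 and 3. The same settings over all 15363 genes gave 1129 higher and 4183 lower, 2382 and 4238, and 4098 and 2679.

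Both dose steps were also compared directly. From 150 nM to 500 nM in OCI-Ly1, CD79A and MALT1 rose and CD79B, LYN, SYK, BTK and PLCG2 fell, 7 of 9 beside 46.2% of all genes (25.1% higher and 21.1% lower). From 150 nM to 500 nM in TMD8, CD79B, BLNK and PLCG2 rose and SYK fell, 4 of 9 beside 28.7% of all genes (13.7% higher and 15% lower). On log2(TPM + 1) OCI-Ly1 had 3 higher and 2 lower, and TMD8 had 0 and 3, where CD79B turned to -0.042 and BLNK to -0.030. All genes on that scale gave 4961 higher and 1860 lower of 15638 in OCI-Ly1, and 464 and 3980 of 15363 in TMD8. In OCI-Ly1 the MALT1 call was lost without 150 nM library 1 or 2 or any of the 500 nM libraries, and the CD79A call without 150 nM library 2 or 500 nM library 2. The 4 calls in TMD8 dropped to 1 or 2 without 150 nM library 1 or 2 or any of the 500 nM libraries.

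The receptor's signalling chains come first. CD79A and CD79B encode the heterodimer that anchors surface immunoglobulin and carries its signal into the cell. In OCI-Ly1, CD79A stood at 202, 193 and 188 CPM with DMSO, 198, 181 and 196 CPM at 150 nM and 212, 216 and 215 CPM at 500 nM. All 3 libraries at 500 nM lay above the other 6. The rise at 500 nM was 1.11-fold, a log2 change of 0.14 (SE 0.051, edgeR adjusted p = 0.024). This call did not hold without DMSO library 2 or 3 or without any one of the 500 nM libraries (edgeR adjusted p up to 0.099), nor on centred TPM. In TMD8, CD79A stood at 354, 385 and 394 CPM with DMSO, 373, 378 and 382 CPM at 150 nM and 383, 402 and 402 CPM at 500 nM. Both dose groups overlapped DMSO, and the 500 nM libraries lay just above those at 150 nM. The change at 500 nM against DMSO was 0.066 (95% interval -0.037 to 0.17, edgeR adjusted p = 0.25), turning to -0.30 on log2(TPM + 1), where it was called (limma adjusted p = 0.015).

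CD79B went down in one line and up in the other. In OCI-Ly1 its libraries held 401, 381 and 339 CPM with DMSO, 376, 348 and 324 CPM at 150 nM and 287, 297 and 292 CPM at 500 nM. The 3 libraries at 500 nM were the lowest of the 9, and CD79B fell by 21.9% (log2 change -0.36, SE 0.062, edgeR adjusted p = 0.00011). In TMD8 they held 175, 180 and 190 CPM with DMSO, 196, 194 and 192 CPM at 150 nM and 214, 227 and 218 CPM at 500 nM. Here the libraries at 500 nM were the highest, and CD79B rose by 20.8% (log2 change 0.27, SE 0.046, edgeR adjusted p = 5.6e-05), with the direction turning to -0.099 on log2(TPM + 1). The difference between the lines was -0.60 (SE 0.086, edgeR adjusted p = 2.8e-06).

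LYN, the Src-family kinase that starts the phosphorylation of the CD79 tails, was lower at 500 nM in OCI-Ly1. Its 9 libraries there held 259, 277 and 272 CPM with DMSO, 249, 252 and 266 CPM at 150 nM and 229, 219 and 228 CPM at 500 nM. The 500 nM libraries did not overlap the DMSO libraries, and the log2 change was -0.26 (SE 0.049, edgeR adjusted p = 0.00024). On log2(TPM + 1) LYN kept that direction in OCI-Ly1 and was not called. In TMD8, LYN was the most counted of the 9 genes, with 804, 734 and 722 CPM with DMSO, 714, 709 and 674 CPM at 150 nM and 695, 700 and 717 CPM at 500 nM. DMSO library 1 stood above the rest, the 500 nM libraries lay just under all 3 DMSO libraries, and the change at 500 nM was -0.098 (edgeR adjusted p = 0.11). On the TPM scales LYN was called lower in TMD8, at -0.47 on log2(TPM + 1) (limma adjusted p = 0.0018) and -0.21 after centring (limma adjusted p = 0.0053).

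SYK, the kinase that docks on the phosphorylated CD79 tails, fell in both lines at 500 nM. In OCI-Ly1 it stood at 421, 424 and 425 CPM with DMSO, 397, 386 and 373 CPM at 150 nM and 324, 341 and 339 CPM at 500 nM. The 3 groups did not overlap and stepped down with dose, by a log2 change of -0.34 at 500 nM (SE 0.045, edgeR adjusted p = 5.6e-06). In TMD8 the libraries held 694, 636 and 647 CPM with DMSO, 510, 507 and 465 CPM at 150 nM and 443, 442 and 433 CPM at 500 nM. The groups stepped down without overlap here too. SYK fell by 25.1% at 150 nM (log2 change -0.42, edgeR adjusted p = 4.5e-06), and it fell by 33.4% at 500 nM (log2 change -0.59, SE 0.051, edgeR adjusted p = 2e-08). The fall was the larger in TMD8 at both doses, with line differences of 0.29 at 150 nM and 0.28 at 500 nM (edgeR adjusted p = 0.0054 and 0.0032).

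BTK, the TEC-family kinase that activates PLCG2 and the target of ibrutinib, showed the largest change of the 9 in OCI-Ly1 at 500 nM. It stood at 134, 146 and 145 CPM with DMSO, 130, 129 and 133 CPM at 150 nM and 91.7, 89.4 and 88.2 CPM at 500 nM. The 150 nM libraries lay just under the DMSO libraries, and the 500 nM libraries far under both. BTK fell by 36.7% at 500 nM (log2 change -0.66, SE 0.053, edgeR adjusted p = 1.3e-08), and 79.5% of all genes tested changed by less in either direction. In TMD8 it held 174, 154 and 155 CPM with DMSO, 131, 142 and 124 CPM at 150 nM and 123, 125 and 124 CPM at 500 nM. Neither dose group overlapped DMSO, and the log2 changes were -0.29 (edgeR adjusted p = 0.00051) and -0.38 (SE 0.057, edgeR adjusted p = 1.6e-05). From 150 nM to 500 nM the further change in TMD8 was -0.094 (edgeR adjusted p = 0.26).

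The line difference in BTK at 500 nM was -0.25 (SE 0.082, edgeR adjusted p = 0.015). It turned to 0.22 on log2(TPM + 1) and was not called without TMD8 DMSO library 2 (edgeR adjusted p = 0.053).

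Of the 9 genes, 2 fell in both lines at 500 nM, SYK and BTK, and their promoter sequences are shown for that reason, with CD79A for comparison, which was called lower in neither line on counts but was in TMD8 on log2(TPM + 1) (-0.30, limma adjusted p = 0.015). RefSeq promoter entries on GRCh38.p14 were matched for 7 of the 9 genes. Each window is the 250 bases before an annotated start, 5′ to 3′ on the gene's strand, and the capitals mark GGAAGT, the core word of ETS factors, or GAGGAAGT, the word of the myeloid and B-cell ETS factor PU.1, on either strand. The PU.1 word contains the ETS word.
BTK, chrX:101390797-101391046, minus strand: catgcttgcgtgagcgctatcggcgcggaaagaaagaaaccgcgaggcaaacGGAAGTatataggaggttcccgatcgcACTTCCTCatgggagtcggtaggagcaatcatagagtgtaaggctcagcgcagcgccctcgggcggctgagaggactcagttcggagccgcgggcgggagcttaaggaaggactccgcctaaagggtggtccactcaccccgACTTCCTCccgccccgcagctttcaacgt
SYK, chr9:90801569-90801818, plus strand: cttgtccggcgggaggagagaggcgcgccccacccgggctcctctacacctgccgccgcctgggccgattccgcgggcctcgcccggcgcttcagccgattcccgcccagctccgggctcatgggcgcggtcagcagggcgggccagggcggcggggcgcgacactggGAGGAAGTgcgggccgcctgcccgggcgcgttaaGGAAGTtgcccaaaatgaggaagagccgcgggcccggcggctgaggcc
CD79A, chr19:41877029-41877278, plus strand: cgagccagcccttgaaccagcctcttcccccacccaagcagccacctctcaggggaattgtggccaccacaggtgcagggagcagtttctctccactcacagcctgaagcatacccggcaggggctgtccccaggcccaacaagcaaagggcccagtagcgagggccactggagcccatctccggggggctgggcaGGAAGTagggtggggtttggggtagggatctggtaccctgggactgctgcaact

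The BTK window held 2 PU.1 words, at 171 to 164 and at 29 to 22 bases before the start, and 3 ETS words counting those 2. It also held 1 match to the NF-kB motif, 187 to 178 bases before the start. The SYK window, the second of 3 annotated starts, held 1 PU.1 word at 82 to 75 bases and 2 ETS words counting that one, while the other 2 SYK windows, of which one overlaps it, and the second BTK window held none. The CD79A window had 1 ETS word, 54 to 49 bases before the start, and no PU.1 word; BLNK and PLCG2 had 1 ETS word each, and BCL10 and MALT1 had none. Among 35116 promoter windows of the same length, 2.17% held the PU.1 word, 19.5% the ETS word and 9.96% the NF-kB motif. The octamer ATGCAAAT (1.63% of all windows), the EBF1 motif (1.06%), the ATF4 word TGATGNAA (3.14%) and the E-box CACGTG (6.34%) were found in none of the windows of the 7 genes. These shares are per window, whereas SYK and BTK each had more than 1 window. A match is a string of letters in a window and was not tied to any measurement of binding. Whether the words have a part in the falls of SYK and BTK was not tested. SPI1, the gene of PU.1, had 17.5 ± 1.78 CPM with DMSO and 17.99 ± 1.17 CPM at 500 nM in OCI-Ly1 (SD, n = 3, edgeR adjusted p = 0.8). In TMD8, SPI1 had 15.2 ± 0.628 CPM with DMSO, 20.3 ± 1.64 CPM at 150 nM, where it rose (log2 change 0.42, edgeR adjusted p = 9e-04), and 17.4 ± 1.86 CPM at 500 nM (edgeR adjusted p = 0.069).

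BLNK, the scaffold on which SYK, BTK and PLCG2 meet, rose with dose in TMD8. Its libraries there held 162, 141 and 138 CPM with DMSO, 169, 174 and 184 CPM at 150 nM and 198, 200 and 200 CPM at 500 nM. The 3 groups did not overlap. The log2 change was 0.26 at 150 nM (edgeR adjusted p = 0.0012) and 0.44 at 500 nM (SE 0.057, edgeR adjusted p = 2.6e-06), with the same direction on log2(TPM + 1), where neither was called. In OCI-Ly1, BLNK held 58.0, 52.7 and 63.4 CPM with DMSO, 55.9, 56.9 and 64.0 CPM at 150 nM and 61.6, 61.5 and 58.9 CPM at 500 nM. These groups overlapped throughout, and the change at 500 nM was 0.061 (95% interval -0.090 to 0.21, edgeR adjusted p = 0.49). The line difference at 500 nM was -0.35 (SE 0.095, edgeR adjusted p = 0.0036), turning to 0.12 on log2(TPM + 1).

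PLCG2, the phospholipase that BTK activates, fell in OCI-Ly1 and rose in TMD8. In OCI-Ly1 it stood at 574, 580 and 584 CPM with DMSO, 550, 503 and 541 CPM at 150 nM and 448, 452 and 430 CPM at 500 nM. Each dose group lay under the one before, and the log2 change at 500 nM was -0.39 (SE 0.046, edgeR adjusted p = 1.6e-06). TMD8 libraries held 532, 492 and 484 CPM with DMSO, 468, 474 and 458 CPM at 150 nM and 558, 569 and 572 CPM at 500 nM. The 150 nM libraries were the lowest of the 9 and the 500 nM libraries the highest. Against DMSO, PLCG2 in TMD8 changed by -0.11 at 150 nM (edgeR adjusted p = 0.078) and rose by 0.17 at 500 nM (SE 0.048, edgeR adjusted p = 0.0046), turning to -0.20 on log2(TPM + 1). On centred log2(TPM + 1) the 500 nM change was 0.054 and not called (limma adjusted p = 0.35). The rise from 150 nM to 500 nM was 0.28 (edgeR adjusted p = 0.00031), and the line difference at 500 nM was -0.53 (SE 0.072, edgeR adjusted p = 1.5e-06).

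BCL10, the adaptor that forms filaments with MALT1, rose in TMD8 at 500 nM. Its TMD8 libraries held 71.4, 61.9 and 64.4 CPM with DMSO, 70.4, 65.6 and 69.3 CPM at 150 nM and 73.2, 77.7 and 75.5 CPM at 500 nM. The 500 nM libraries stood above the other 6, with a log2 change of 0.20 (SE 0.058, edgeR adjusted p = 0.0067), turning to -0.17 on log2(TPM + 1). On centred log2(TPM + 1) the change was 0.087 and not called (limma adjusted p = 0.2). In OCI-Ly1 the libraries held 30.2, 33.9 and 32.3 CPM with DMSO, 30.9, 31.9 and 35.0 CPM at 150 nM and 36.3, 37.1 and 34.3 CPM at 500 nM. The 500 nM libraries lay above the DMSO libraries there too, by a log2 value of 0.16 (edgeR adjusted p = 0.069). The line difference in this response was -0.0048 on counts (95% interval -0.20 to 0.19, edgeR adjusted p = 0.99), and on log2(TPM + 1) it was called at 0.45 (limma adjusted p = 0.0098).

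MALT1, the paracaspase that binds BCL10 and cleaves brakes on NF-kB, moved in opposite directions. In OCI-Ly1 its libraries held 52.4, 50.5 and 63.4 CPM with DMSO, 55.9, 60.9 and 63.0 CPM at 150 nM and 72.1, 66.3 and 67.6 CPM at 500 nM. The 500 nM libraries were the highest, although DMSO library 3 came close to them, and MALT1 rose by 23.7% (log2 change 0.31, SE 0.078, edgeR adjusted p = 0.003). In TMD8 they held 97.1, 90.4 and 88.3 CPM with DMSO, 82.4, 79.6 and 75.1 CPM at 150 nM and 74.7, 70.5 and 74.0 CPM at 500 nM. The 3 groups stepped down without overlap, and MALT1 fell by 14.1% at 150 nM (edgeR adjusted p = 0.0025), and it fell by 20.5% at 500 nM (log2 change -0.33, SE 0.054, edgeR adjusted p = 3.7e-05). The line difference was 0.33 at 150 nM (edgeR adjusted p = 0.016) and 0.67 at 500 nM (SE 0.10, edgeR adjusted p = 5.5e-06), the largest among the 9 genes. At 150 nM it was not called without TMD8 150 nM library 3 (edgeR adjusted p = 0.06) or with library-size scaling alone (edgeR adjusted p = 0.061). The call in OCI-Ly1 at 500 nM was not made on centred TPM.

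**Figure D2:**
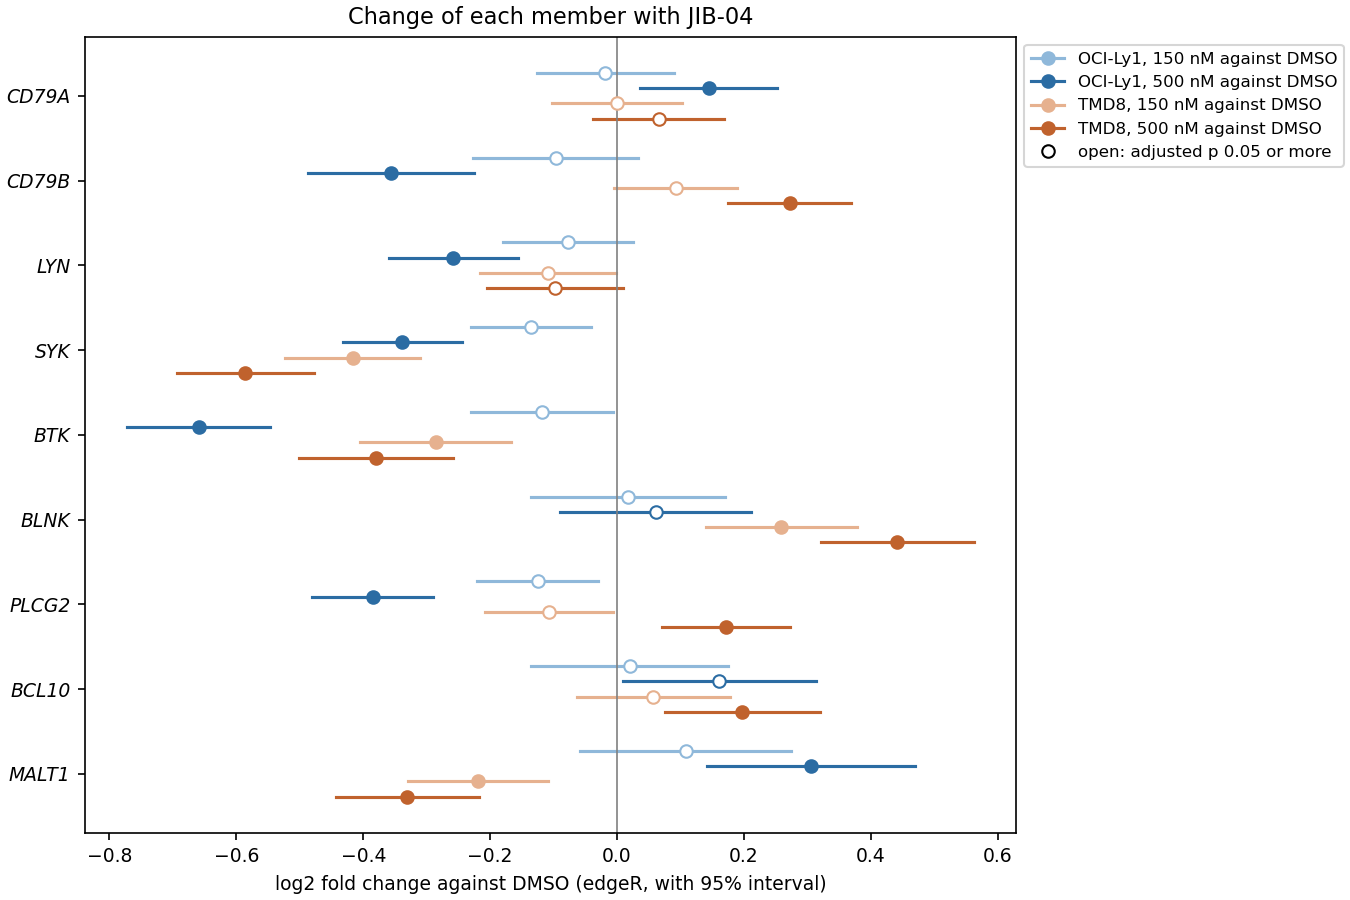
Log2 fold change against DMSO (x axis, edgeR) with its 95% interval for the 9 genes in each line and dose; filled points passed an adjusted p of 0.05. In OCI-Ly1 at 500 nM the values run from -0.66 for BTK to 0.31 for MALT1, and in TMD8 from -0.59 for SYK to 0.44 for BLNK; in TMD8 at 500 nM the points of CD79A, CD79B, PLCG2 and BCL10 would lie left of 0 on log2(TPM + 1).

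Set side by side at 500 nM, 2 of the 9 genes fell in both lines and 0 rose in both, 3 were called in opposite directions (CD79B, PLCG2 and MALT1) and 4 were called in 1 line (CD79A and LYN in OCI-Ly1, BLNK and BCL10 in TMD8), of which BLNK also differed between the lines by test and LYN was called lower in both lines on centred log2(TPM + 1). The 3 opposite calls are 33.3% of the 9 genes, beside 8.51% of the 14483 genes tested in both lines, and the 2 shared falls are 22.2% beside 13.7%. Of those 14483 genes, 2040 rose in both lines and 6223 were called in 1 line. The opposite calls were tied to the count scale. CD79B and PLCG2 were not called in TMD8 on log2(TPM + 1), and there the genes called in opposite directions were CD79A and MALT1. On centred log2(TPM + 1) CD79B alone was, while SYK and BTK fell in both lines on either scale. Tested as a difference between the lines, 6 of 9 were called at 500 nM (CD79B, BTK, BLNK and PLCG2 lower in OCI-Ly1 than in TMD8, SYK and MALT1 higher), beside 46.4% of 16604 genes (28.2% higher and 18.1% lower). On log2(TPM + 1) that split was 5 higher and 0 lower in place of 2 and 4, as CD79B stayed at -0.13 without being called and BTK and BLNK turned sign. On that scale 9104 of all 16604 genes were higher and 1112 lower. At 150 nM 2 of 9 were called, SYK and MALT1, both higher, beside 23.3% of genes (15% higher and 8.33% lower), and 1 higher and 2 lower with library-size scaling alone. That scaling called 1715 of all 16604 genes higher and 1937 lower. On counts the largest change of the 9 against DMSO was that of BTK in OCI-Ly1, to 0.633 of its DMSO level, and on log2(TPM + 1) it was that of SYK in TMD8 (-0.95).

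Ratios between partners within a library do not depend on how libraries are scaled. The 4 pairs were chosen after the values were seen, so they are a description, and with 3 libraries against 3 a two-sided exact permutation test cannot go below 0.1. In OCI-Ly1 the ratio of CD79A to CD79B in TPM was 0.504 ± 0.0279 with DMSO, 0.532 ± 0.0430 with 150 nM and 0.716 ± 0.00791 with 500 nM (SD, n = 3). In TMD8 it went from 2.10 ± 0.0548 to 1.97 ± 0.0471 and 1.82 ± 0.0387. The chain in excess differed between the lines, CD79B in OCI-Ly1 and CD79A in TMD8, and at 500 nM the ratio lay closer to 1 in both, with no overlap between the DMSO and 500 nM libraries.

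The ratio of BTK to PLCG2 was lower at 500 nM in both lines, at 0.411 ± 0.0156 with DMSO and 0.339 ± 0.00695 at 500 nM in OCI-Ly1, and at 0.538 ± 0.0115 and 0.367 ± 0.00349 in TMD8. The SYK to LYN ratio went from 0.711 ± 0.0148 to 0.506 ± 0.0144 in TMD8, and from 1.28 ± 0.0369 to 1.21 ± 0.0594 in OCI-Ly1, where the libraries overlapped. The MALT1 to BCL10 ratio went from 0.849 ± 0.0329 to 0.589 ± 0.0349 in TMD8 and from 1.05 ± 0.142 to 1.16 ± 0.0670 in OCI-Ly1, again with overlap. TMD8 had groups that did not overlap at 500 nM for all 4 ratios, and OCI-Ly1 for 2 of them. The share of other gene pairs without overlap was not counted, so this is no result about the lines. Every ratio whose groups did not overlap gave the exact permutation test's smallest p of 0.1.

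**Figure D3:**
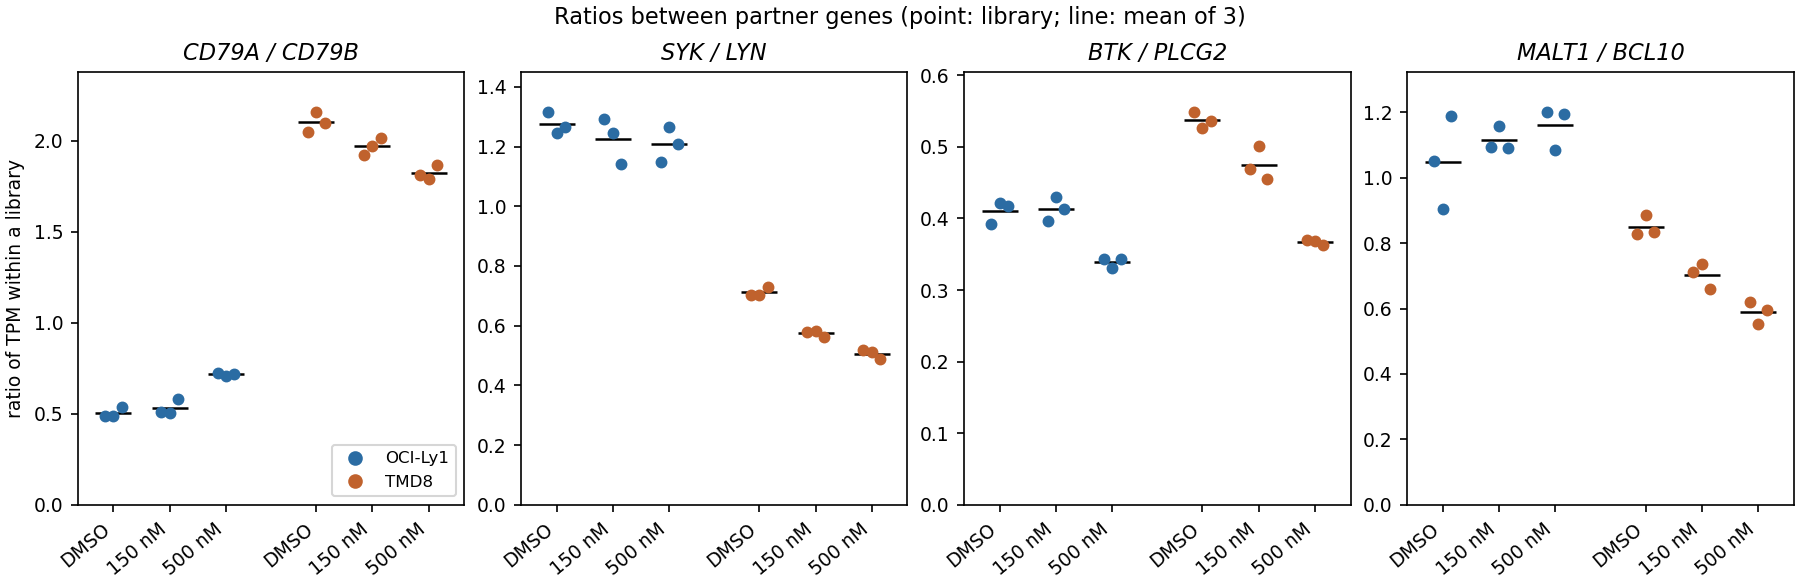
Ratio of TPM between partner genes within each library (points) with the mean of 3 (line), OCI-Ly1 in blue and TMD8 in orange. The CD79A to CD79B ratio lies below 1 in OCI-Ly1 (0.487 to 0.722) and above 1 in TMD8 (1.79 to 2.16), and the other 3 ratios were lower at 500 nM than with DMSO in TMD8.

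PRKCB, the kinase between PLCG2 and the BCL10-MALT1 pair, had 54.5 ± 3.59 CPM with DMSO and 48.8 ± 1.26 CPM at 500 nM in OCI-Ly1, and the TMD8 values were 261.5 ± 6.51 and 245.7 ± 0.760 CPM (SD, n = 3). Its log2 change was -0.16 in OCI-Ly1 (edgeR adjusted p = 0.048), a call lost on log2(TPM + 1) (limma adjusted p = 0.81), and -0.090 in TMD8 (edgeR adjusted p = 0.09), turning to 0.0038 with library-size scaling and called lower at -0.37 on log2(TPM + 1) (limma adjusted p = 0.0039). With DMSO it was lower in OCI-Ly1 than in TMD8, by a log2 difference of -2.38 (edgeR adjusted p = 6e-24).

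The rest of the route was read from 9 lists of genes at 500 nM against DMSO, described by counts beside the shares called over all genes given above. Upstream, the co-receptors, adaptors and PI3-kinase genes had 8 rising and 7 falling of 23 tested in OCI-Ly1, and 7 and 6 of 24 in TMD8. In OCI-Ly1 the adaptors GAB2 (2.20) and SH3BP2 (1.57) were among those with the largest log2 changes. GAB2 was low there, with means of 1.55 CPM with DMSO and 7.14 CPM at 500 nM. In TMD8 the largest by the naming rule were the adaptor GAB1 (1.119), the exchange factor VAV2 (0.56) and PIK3CA (0.51), the last 2 not called on log2(TPM + 1). Their means in OCI-Ly1 were also higher at 500 nM than with DMSO. GAB1 had 25.9 CPM with DMSO and 55.8 at 500 nM there, PIK3CA 63.15 and 125, and VAV2 1.27 and 2.74. Of the other Src-, SYK- and TEC-family kinases, 6 of 9 rose and 2 fell in OCI-Ly1, and 4 of 7 rose and 1 fell in TMD8. FYN, a Src-family kinase known from T cells, rose by 3.15 in OCI-Ly1 and by 0.49 in TMD8, where it was at 0.051 on log2(TPM + 1) and not called. ZAP70, the T-cell relative of SYK, rose by 0.94 in OCI-Ly1, where the T-cell markers CD3D and CD3G had mean levels of 11.7 and 14.8 TPM with DMSO and 4.95 and 7.41 TPM at 500 nM. The part of those markers in the list's counts was not tested. BLK, the B-cell Src-family kinase, had a log2 change of -0.62 in TMD8. LYN and SYK themselves fell in OCI-Ly1, LYN without a call on log2(TPM + 1) (-0.12, limma adjusted p = 0.095). Of these 9 relatives 6 rose there, beside 27.7% of all genes.

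Only 5 of 13 immunoglobulin and surrogate light chain symbols matched the tables. IGHM, IGHD, IGHG1, IGHA1, IGKC, IGLC1, IGLC2 and IGLC3 had no match, so these heavy and light constant-region genes were not analysed here. In OCI-Ly1, VPREB3 (-0.73) and the joining chain IGJ (-0.47) fell and IGLL5 (0.35) rose. In TMD8, IGLL5 rose by 0.49, with a value of 0.12 on log2(TPM + 1) that was not called there.

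Downstream of PLCG2, the list of protein kinase C, CARD-family, TRAF, TAK1, LUBAC and IKK genes had 8 rising and 7 falling of 21 in OCI-Ly1, and 3 and 5 of 22 in TMD8. RBCK1, a subunit of the linear ubiquitin ligase LUBAC, rose by 0.83 in OCI-Ly1, and CSNK1A1, the casein kinase 1 alpha gene, by 0.50. In TMD8, UBE2N and UBE2V1, which together build the ubiquitin chains that TRAF6 uses, fell (-0.72 and -0.53), and the IKK subunit IKBKB rose by 0.43 on the count scale, with 0.047 on log2(TPM + 1). The calcium, NFAT and RAS-MAPK arm that also leaves PLCG2 had 11 rising and 6 falling of 26 in OCI-Ly1, and 12 and 8 of 26 in TMD8. The calcium channels ITPR1 (1.36 in OCI-Ly1) and ITPR2 (1.07 in TMD8) led it.

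Brakes and outputs of the route came last. Of 26 negative regulators tested in each line, 11 rose and 8 fell in OCI-Ly1, and likewise 11 and 8 in TMD8. PAG1, which anchors the Src-family inhibitor CSK, rose by 2.16 in OCI-Ly1 and 1.102 in TMD8, and CBLB, a ubiquitin ligase that restrains antigen-receptor signalling, by 1.401 in TMD8. The NF-kB inhibitors TNFAIP3 and NFKBIA rose by 1.48 and 1.25 in OCI-Ly1, whereas PTPN6, the phosphatase SHP-1, fell in TMD8 (-0.84). Of the NF-kB subunits and targets, 11 of 19 rose and 3 fell in OCI-Ly1 (median 0.31), and 10 of 22 rose and 6 fell in TMD8 (median 0.093). ICAM1 rose by 3.61, from 1.48 ± 0.222 to 18.4 ± 0.117 CPM, and CCR7 by 2.89 in OCI-Ly1. LTA, a lymphotoxin, rose by 1.69 in OCI-Ly1 and 1.60 in TMD8, LTB rose by 2.07 in TMD8 and BIRC3 fell there (-1.17).

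The MYD88 and Toll-like receptor arm, which reaches NF-kB beside the B-cell receptor, had 2 rising and 6 falling of 12 in OCI-Ly1, and 3 and 6 of 12 in TMD8. MYD88, its adaptor, fell in both lines, with a log2 change of -0.94 in OCI-Ly1 (28.0 ± 1.54 to 14.6 ± 1.07 CPM) and of -0.69 in TMD8 (93.5 ± 7.19 to 58.0 ± 0.692 CPM). TLR10 (-1.36) and TLR9 (-0.85) fell in OCI-Ly1, and TLR7 rose by 0.89 in TMD8. Of 17 B-lineage transcription factors, 6 rose and 8 fell in OCI-Ly1, and in TMD8 6 rose and 6 fell. IKZF1, the Ikaros factor of lymphoid cells, fell in both, by log2 changes of -0.79 and -0.94. MEF2B rose (0.81) and the octamer-binding factor POU2F1 fell (-0.67) in OCI-Ly1, and in TMD8 BCL6 at 0.37 and IRF8 at 0.35 were called on the count scale and turned to -0.0063 and -0.022 on log2(TPM + 1). Apart from BCL6, IRF8 and PRKCB in TMD8, the list genes named by the rule kept their direction with library-size scaling, DESeq2 size factors, log2(TPM + 1) and centred log2(TPM + 1). The lists' counts moved: on log2(TPM + 1) in TMD8 the co-receptor list was 1 higher and 15 lower and the NF-kB list 5 higher and 11 lower. All genes moved the same way there, with 1751 of 15363 higher and 7581 lower.

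**Figure D4:**
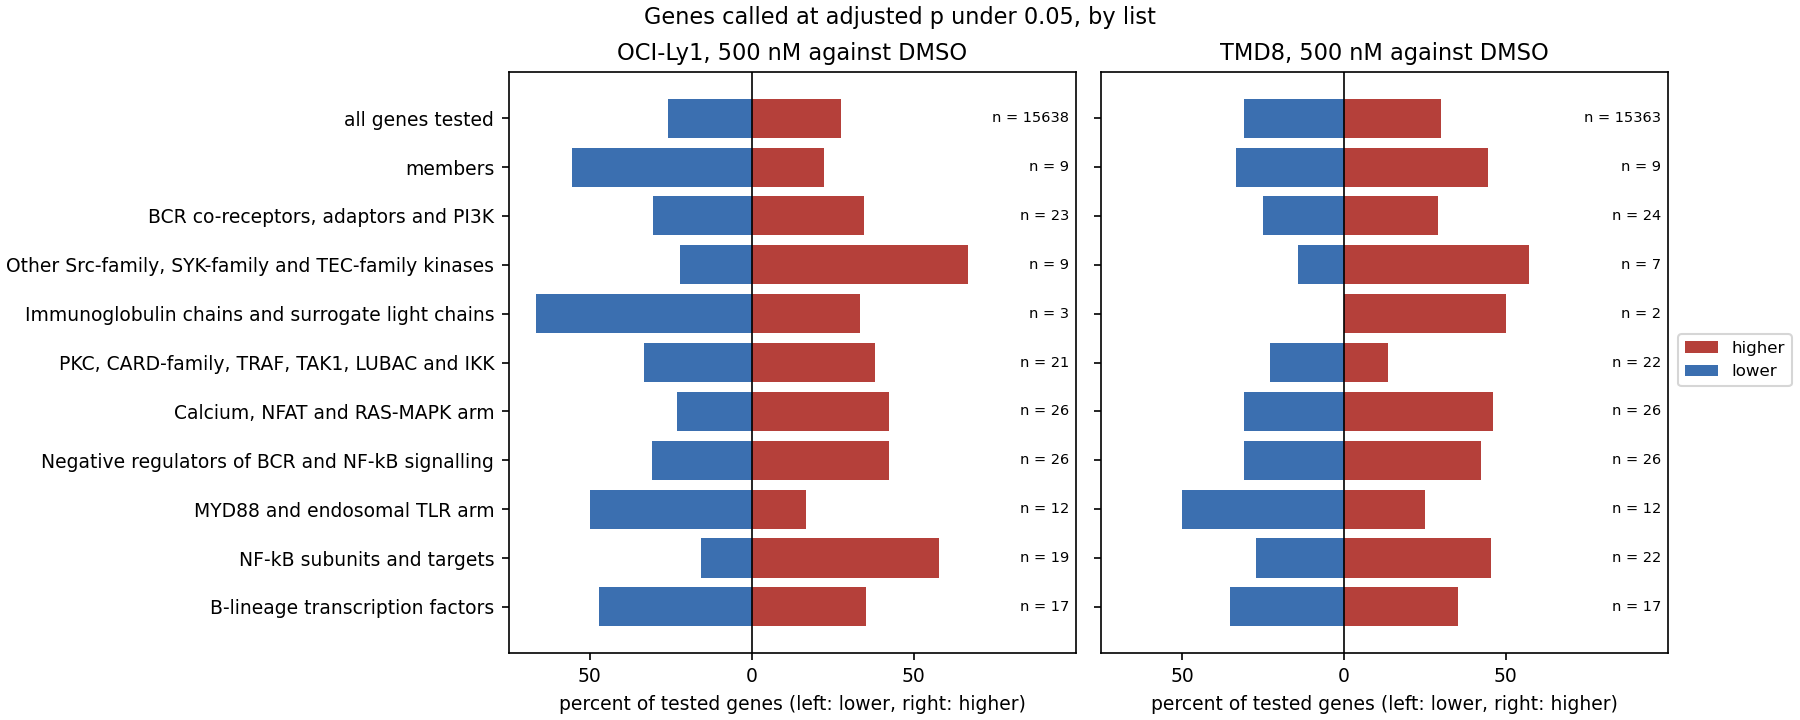
Percent of the tested genes of each list called higher (right, red) or lower (left, blue) at 500 nM against DMSO in OCI-Ly1 and TMD8, with the number tested; all genes tested are the top bar, and the 9 genes, marked members, come next. The NF-kB list stands at 11 higher and 3 lower of 19 in OCI-Ly1. The MYD88 list stands at 6 lower of 12 in each line. On log2(TPM + 1) most TMD8 lists had more genes lower than higher, as did all genes (1751 higher and 7581 lower of 15363).

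Finally, the 9 genes were compared with each other and with all genes by the correlation of log2 CPM over the 18 libraries, centred within each line. The libraries share dose, so these values describe how patterns over the 6 groups resemble each other and are given without a test. Among the 36 pairs of the 9 genes the highest was LYN with BTK (r = 0.935) and the lowest CD79B with MALT1 (r = -0.923), while the 2 receptor chains stood at -0.191 and BCL10 with MALT1 at 0.0335. Of 14482 other genes tested in both lines, the most alike was GAPDH for SYK (r = 0.988), CLINT1 for BTK (0.981), ARHGEF18 for CD79B (0.966) and MRPS31 for LYN (0.959). For the others it was ATP2B1 for MALT1 (0.956), MON2 for BLNK (0.954), GFPT1 for BCL10 (0.933), AHNAK for PLCG2 (0.926) and MIR663B for CD79A (0.886). The median r over all genes lay between -0.0399 and 0.0405 for each of the 9.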

How the data were processed

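RNA of 18 libraries was read in pairs of 101 cycles, per the labels' protocols. Per the submitters' processing notes, kallisto 0.46.0, R 4.3.1, DESeq2 1.40.2 and the build hg19 were used; the step from transcripts to genes and the strand setting are not given in the sources used here. The authors deposited estimated counts and TPM for each line. The estimated counts were rounded to whole numbers and tested with edgeR 4.0.16 (R 4.3.3; TMM, low-count filter by group, quasi-likelihood test, 95% intervals), the 9 libraries of a line together and all 18 for differences between lines. Adjusted p-values cover all genes of a comparison. Alternatives used limma 3.58.1 on the deposited TPM (pseudocounts 1 and 0.1), DESeq2 1.42.0, other scalings, no filter, a replicate block and each library left out. The test code was run on simulated data with a fixed spread and changes larger than most dose changes called here. That run does not show how often changes of this size are found. No 2 libraries of a group agreed within sampling noise (chi-square per degree of freedom 1.65 to 11.5). The 9 genes and all lists were chosen with earlier results of these data known. By rule, each list names at most 3 called genes per line, those with the largest changes at 500 nM among genes whose higher group averaged 5 CPM or more and whose libraries all held more than 3 counts, plus PRKCB; some genes named by that rule are not reported here; SPI1 and the marker genes were named after their values were seen.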

Additional observations from a re-analysis of the deposited data

Results flagged for a closer look

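For 6 of the 9 genes the response to JIB-04 differed between OCI-Ly1 and TMD8 in edgeR's test of the difference itself. That test called 46.4% of 16604 genes at 500 nM and 23.3% at 150 nM. Each value here is the OCI-Ly1 log2 change less the TMD8 one. At 150 nM the difference was 0.288 for SYK (SE 0.0738, adjusted p = 0.0054) and 0.334 for MALT1 (SE 0.10, adjusted p = 0.016). The MALT1 call was lost with library-size scaling alone and without TMD8 150 nM library 3. At 500 nM the difference was -0.598 for CD79B (SE 0.0857, adjusted p = 2.8e-06), which fell in OCI-Ly1 and rose in TMD8. PLCG2 did the same, with -0.526 (SE 0.0722, adjusted p = 1.5e-06). MALT1 went the other way, with 0.667 (SE 0.10, adjusted p = 5.5e-06). SYK fell in both lines, less in OCI-Ly1, with 0.278 (SE 0.0739, adjusted p = 0.0032). BTK fell in both, more in OCI-Ly1, with -0.249 (SE 0.0822, adjusted p = 0.015). The BTK difference was not called without TMD8 DMSO library 2 (edgeR adjusted p = 0.053). BLNK rose in TMD8 and was not called in OCI-Ly1, with -0.351 (SE 0.0947, adjusted p = 0.0036). On log2(TPM + 1) the signs of BTK and BLNK turned, and CD79B and PLCG2 kept theirs without a call. Cell line and medium differ together, so their parts cannot be told apart.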

How the results depend on the processing

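The labels call the libraries technical triplicates and name no separate cultures, so the calls cover the spread between libraries. The number of genes called of the 9 stayed within 1.5 times its value in 137 of 144 alternatives. From 150 nM to 500 nM in TMD8, 4 were called, against 2 on centred log2(TPM + 1) and 1 to 5 with a library left out; the line difference at 150 nM had 2, against 1 to 3 with a library left out. Leaving out a library gave 6 to 7 at 500 nM against DMSO in OCI-Ly1 and 7 in TMD8. Same-numbered libraries correlated by -0.0856 to 0.159 after centring on their groups, and differently numbered ones by -0.224 to 0.155. Whether the numbers pair the libraries was not settled by these values. A replicate block gave 0, 7, 7, 4, 7 and 4 genes called in the 6 within-line comparisons. It gave 2 and 6 for the line differences and 8 between the lines with DMSO. All these counts were the same without the block. Over all genes at 150 nM in OCI-Ly1 the block called 159 higher and 48 lower, against 117 and 22 without it.

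Direction turned in 26 of 1296 single-gene alternatives, all on log2(TPM + 1) or log2(TPM + 0.1), whose medians over all genes move as given above; the values are in that order. In TMD8, the 500 nM change from DMSO was -0.304 and -0.305 for CD79A, -0.099 and -0.0998 for CD79B, -0.20 and -0.202 for PLCG2 and -0.166 and -0.176 for BCL10. For 500 nM against 150 nM in TMD8 they were -0.0416 and -0.0419 for CD79B and -0.0301 and -0.0305 for BLNK. For the line difference at 500 nM they were 0.348 and 0.35 for LYN, 0.22 and 0.231 for BTK, 0.123 and 0.126 for BLNK and 0.446 and 0.473 for BCL10. Between the lines with DMSO they were 0.21 and 0.212 for SYK, 0.654 and 0.665 for BTK and 0.0992 and 0.106 for MALT1. Another 59 alternatives lost a call and 41 gained one, and in 69 a value that was never called changed sign, with sizes up to 0.208. SYK, BTK and MALT1 kept direction and call against DMSO at 500 nM in TMD8 under all 15 alternatives run, and CD79B, SYK, BTK and PLCG2 did so in OCI-Ly1.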
